A study of Mus musculus with 4 samples.

Results

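The D-type cyclins, the inhibitors of cyclin-dependent kinases (CDKs) and Skp2 were examined in mouse mammary glands with and without stathmin, a microtubule-destabilising protein. All mice were transgenic for Δ16HER2, a human HER2 variant made by skipping an exon. The members were 10 genes taken by name, and their probes were found through the RefSeq accession that each array probe carries. Of these genes, 9 had a probe, 12 probes in all, among 18952 named genes and 41174 probes on the array. No probe here matched Ccnd1, the cyclin D1 gene, which is not analysed here. The 2 knockout arrays came from 13-week-old female STM KO Δ16HER2 transgenic mice, and the 2 wild-type arrays from females of the same age and transgene that were WT for stathmin, all sampled before tumours had formed. The sources used here do not give the promoter that drives the transgene, the number of animals behind a sample or whether samples were pooled, so p-values reflect only how far these samples spread, which may be technical.

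D-type cyclins bind CDK4 and CDK6 and start the phosphorylation of the RB protein that lets a cell leave G1 and enter S phase. The INK4 proteins (genes Cdkn2a, Cdkn2b and Cdkn2c) block CDK4 and CDK6, while the CIP/KIP proteins p21, p27 and p57 (Cdkn1a, Cdkn1b and Cdkn1c) act on several cyclin-CDK complexes and chiefly restrain CDK2. Skp2 is the F-box protein of the ubiquitin ligase that marks p27 for destruction. Cyclin D1 is known as a mediator of HER2-driven growth in the mammary gland, and p27 is known to bind stathmin and to limit its action on microtubules.

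Each array measured total RNA of a whole gland sample, labelled with Cy3, and between 54.7% and 66.2% of probe spots on an array were well above background. No spot was saturated, all 4 arrays shared 1 slide and 1 scan, and genotype and position on the slide cannot be told apart, since neighbouring positions held 1 genotype each. Of the tested probes, values correlated between arrays with r from 0.963 to 0.975. A level below is log2 of the processed signal relative to the array's 75th percentile, and a log2 fold change is the knockout mean minus the wild-type mean on that scale. Processed signals given below are not scaled between arrays. The 75th percentile was 292 and 160 on knockout 1 and 2, against 191 and 144 on wild type 1 and 2. The labels give the histotype as epithelial, while the description field of each sample speaks of EOC cells, which goes against the other labels and was not used. All 15 luminal epithelial markers and all 10 adipocyte markers passed the filter on dim probes. In such bulk samples, fewer cells of a type and less RNA per cell cannot be told apart. The brighter probe of Stmn1, the targeted gene, read 4.56 and 3.34 on knockout 1 and 2, against 5.59 and 3.59 on wild type 1 and 2. Its dimmer probe had processed signals of 5.57 and 4.84 on the knockout arrays, against 87.6 on wild type 1 and 13.8 on wild type 2, and only that of wild type 1 was well above background. The brighter probe does not separate the groups, the dimmer one has a measured level on 1 array only, and where either probe lies relative to the deleted part is not given in the sources used here, so the arrays are called by their labels.

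RefSeq promoter sequence (build GRCm38.p6) was at hand for 7 members, in 12 windows. The 250 bases before the start are shown for Cdkn1b, Cdkn2b and Ccnd3, because these were the members with a probe whose groups did not overlap. Sequences run 5′ to 3′ on the strand of the gene, and capitals mark matches on either strand to any of 4 promoter motifs. The letters TATAAA, as in the TATA box, were in 12.4% of all 32851 windows of this length. The CCAAT box, searched by those letters, was in 33.8% of them. The GC box, which factors of the Sp1 family bind, was searched as GGGCGG and was in 32.7%. For the E2F family the letters were TTTNNCGC, found in 4.3%. No match shown here overlaps one to another motif. The Cdkn1b window lies at chr6:134920151-134920400 on the plus strand and the Cdkn2b window at chr4:89311033-89311282 on the minus strand. The Ccnd3 windows lie at chr17:47504801-47505050 and chr17:47593217-47593466, both on the plus strand.
Cdkn1b: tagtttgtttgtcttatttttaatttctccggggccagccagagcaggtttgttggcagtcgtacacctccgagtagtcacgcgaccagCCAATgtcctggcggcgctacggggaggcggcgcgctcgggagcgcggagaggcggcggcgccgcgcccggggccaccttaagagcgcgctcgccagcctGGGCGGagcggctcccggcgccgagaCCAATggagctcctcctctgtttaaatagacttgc
Cdkn2b: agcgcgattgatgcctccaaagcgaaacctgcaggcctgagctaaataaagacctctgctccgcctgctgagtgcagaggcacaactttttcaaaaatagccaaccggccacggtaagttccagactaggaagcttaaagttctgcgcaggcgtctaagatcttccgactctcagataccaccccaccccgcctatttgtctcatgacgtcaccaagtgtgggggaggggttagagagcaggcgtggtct
Ccnd3, first start: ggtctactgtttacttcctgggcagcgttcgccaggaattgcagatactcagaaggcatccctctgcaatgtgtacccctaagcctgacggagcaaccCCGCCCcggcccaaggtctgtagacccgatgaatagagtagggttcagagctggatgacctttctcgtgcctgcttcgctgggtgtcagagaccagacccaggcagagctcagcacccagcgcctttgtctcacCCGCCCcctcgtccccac
Ccnd3, other start: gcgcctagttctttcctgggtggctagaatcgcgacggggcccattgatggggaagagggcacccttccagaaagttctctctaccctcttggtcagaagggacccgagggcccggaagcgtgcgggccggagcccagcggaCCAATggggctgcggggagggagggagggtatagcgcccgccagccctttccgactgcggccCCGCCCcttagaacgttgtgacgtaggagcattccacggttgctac
The Cdkn1b window had CCAAT boxes beginning 161 and 35 bases before the start and a GC box at 61. The Cdkn2b window held none of the 4 motifs. Its GC content was 53.6%, against 64.4% for Cdkn1b and a median of 52.4% over all windows. The first Ccnd3 window had GC boxes at 152 and 18 bases, and the other had a CCAAT box at 108 and a GC box at 46. These are matches to letters in a window, not sites shown to be used. No window of Ccnd1, Ccnd2 or Cdkn1c was matched.

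No member passed the test between knockout and wild-type arrays, with 0.05 as the limit for an adjusted p. Of the 12 probes, 11 from 8 genes passed the filter on dim probes and entered the fit, with adjusted p from 0.935 to 0.972 (limma with Benjamini-Hochberg adjustment over 24186 probes). The same fit called 0% of all tested probes in either direction. At an unadjusted p under 0.05 it held 1.05% of probes higher and 2.65% lower, and no member probe was among them. Fold changes were positive for 5 of the 8 genes by their brightest probe and negative for 3, with a median of 0.16, against positive fold changes for 49.2% and negative ones for 50.8% of the 13235 tested named genes, with a median of -0.01 over them. The members' median turned to -0.07, with 4 positive and 4 negative, without wild type 1. It was 0.08 without knockout 2 and, with 4 on each side, under normexp background correction, and 0.34 under median scaling, which raised the median of all tested probes as well. The median absolute fold change of the 8 genes was 0.28, against 0.23 over all tested named genes. The gap between the 2 arrays of one group exceeded the difference between groups for 10 of the 11 probes, and only the brighter Cdkn1b probe differed more between groups than within either.

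**Figure D1:**
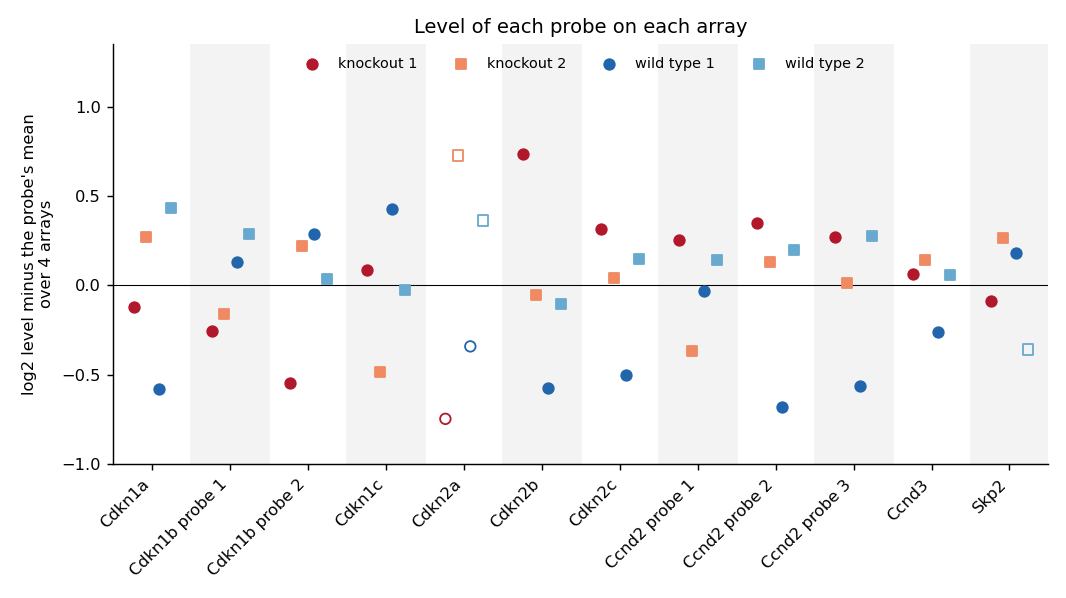
Level of each member probe on each array, as log2 level minus the probe's mean over the 4 arrays, with knockout arrays in red and orange and wild-type arrays in blue. Open symbols mark a probe not well above background on that array, and where a gene has several probes, probe 1 is the brightest. Wild type 1 is the lowest array for 6 of the 11 tested probes, and the arrays of a group lie as far apart as the groups for most probes.

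Among the CIP/KIP inhibitors, Cdkn1b, which encodes p27, had a lower knockout mean by both of its probes, though only probe 1 separated the groups and no call was made. Probe 1 (NM_009875) read -1.23 on knockout 1 and -1.14 on knockout 2, against -0.84 on wild type 1 and -0.69 on wild type 2. The knockout arrays were thus the 2 lowest of the 4, with 0.29 between the nearest pair of the groups. This gave a log2 fold change of -0.42 ± 0.24 (SE, n = 2 arrays per group, limma adjusted p = 0.935), with a 95% interval from -1.03 to 0.19. Under normexp background correction it was -0.11, and under median scaling -0.24. Probe 2 of Cdkn1b was printed 10 times on every array, which shows the technical spread within an array. Its mean was -1.83 on knockout 1 and -1.06 on knockout 2, against -0.995 on wild type 1 and -1.25 on wild type 2. Here knockout 1 stood low by itself and knockout 2 lay between the wild-type arrays, so the groups overlapped. Its log2 fold change was -0.33 ± 0.34 (SE), and it was -0.08 under normexp correction, -0.15 under median scaling and 0.06 without knockout 1. The spots of knockout 1 ran from -2.16 to -1.53, and those of the other arrays from -1.47 to -0.72, so the low reading of knockout 1 exceeded the spread between spots. The SD between spots was 0.18 and 0.11 on the knockout arrays and 0.17 and 0.09 on the wild-type arrays. Outlier flags left 8 of the 10 spots of knockout 2 in use.

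Markers of several cell types had mostly negative fold changes and those of others mostly positive ones, none of them called. Of the 10 adipocyte markers, 6 were positive and 4 negative, with a median of 0.09. All 4 tested B cell markers and all 8 tested T cell markers were positive, with medians of 2.59 and 2.25. Those lymphocyte markers were high on knockout 2, as given below. The lists that follow were mostly negative. Over all tested named genes, 50.8% were negative, and 17.8% were lower on the knockout arrays without overlap of the groups. Of the 9 fibroblast markers, 8 were negative, 6 of these without overlap of the groups, with a median of -0.40. Their summed linear level was 259 and 265 on the knockout arrays, against 392 and 390 on the wild-type arrays. All 7 macrophage markers on the array, of 8 listed, were negative, 4 of these without overlap, with a median of -0.47. They summed to 23.5 and 27.4 on the knockout arrays, against 27.3 and 47.1 on the wild-type arrays. Of the 15 luminal markers, 14 were negative, 4 of these without overlap, with a median of -0.36. They summed to 136 and 92.0 on the knockout arrays, against 121 and 161 on the wild-type arrays. Of the 8 endothelial markers, 7 were negative, 3 of these without overlap, with a median of -0.33. They summed to 34.3 and 31.8 on the knockout arrays, against 38.9 and 37.7 on the wild-type arrays. Of the 8 skeletal muscle markers, 7 were negative, 3 of these without overlap, with a median of -0.31. They summed to 544 and 810 on the knockout arrays, against 829 and 763 on the wild-type arrays. Of the 9 basal markers, 6 were negative, 3 of these without overlap, with a median of -0.29. They summed to 69.9 and 55.3 on the knockout arrays, against 79.1 and 64.9 on the wild-type arrays. The fibroblast and endothelial sums thus separated the groups, while the macrophage, luminal, muscle and basal sums overlapped. The part of these cell types in the Cdkn1b and Cdkn1c values was not tested.

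Cdkn1a, which encodes p21, a target of p53, showed no separation of the groups but a wide gap between the wild-type arrays. Its probe (NM_007669), also printed 10 times, averaged 0.66 on knockout 1 and 1.05 on knockout 2, against 0.20 on wild type 1 and 1.21 on wild type 2. The knockout arrays lay between the wild-type arrays. Its log2 fold change was 0.15 ± 0.41 (SE, n = 2 per group, limma adjusted p = 0.972), and it turned to -0.36 without wild type 1 and to -0.05 without knockout 2. Its spots ran from 0.44 to 0.81 on knockout 1 and from 0.78 to 1.25 on knockout 2. Those of wild type 1 ran from 0.05 to 0.47 and those of wild type 2 from 0.87 to 1.37, with SDs of 0.12 and 0.13. The gap of 1.01 between the wild-type arrays was therefore far wider than the spread between spots.

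**Figure D2:**
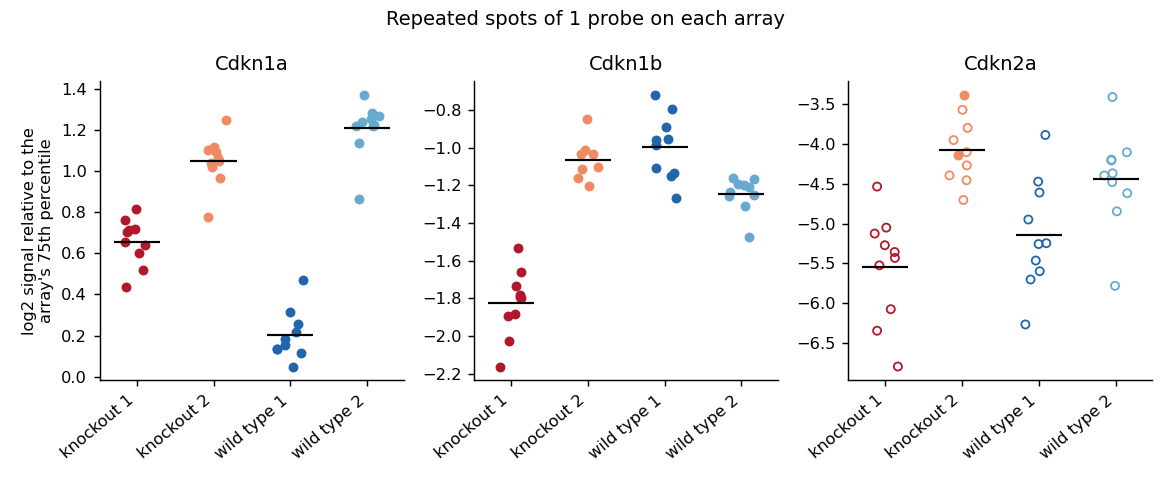
Single spots of the member probes that were printed 10 times, as log2 signal relative to the array's 75th percentile, on each knockout and wild-type array. Bars are means over spots, open circles are spots not well above background, and each panel has its own scale. Spots of 1 array cluster tightly for Cdkn1a and Cdkn1b, while Cdkn2a is well above background on only 2 spots, both of knockout 2.

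Cdkn1c encodes p57, an imprinted inhibitor linked to cell cycle exit. Its probe (NM_009876) read 2.90 on knockout 1 and 2.33 on knockout 2, against 3.24 on wild type 1 and 2.78 on wild type 2. Wild type 1 was highest and knockout 2 lowest, and the groups overlapped because knockout 1 exceeded wild type 2. The log2 fold change of -0.40 ± 0.33 (SE) was -0.11 to -0.69 with 1 array left out.

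The INK4 genes with signal had positive fold changes, and Cdkn2b, which encodes p15, a target of TGF-beta signalling, had the largest absolute fold change of any member. Its probe (NM_007670) had processed signals of 847 on knockout 1 and 269 on knockout 2, against 225 on wild type 1 and 235 on wild type 2. As levels these were 1.54 and 0.75 on the knockout arrays, against 0.23 and 0.70 on the wild-type arrays. Knockout 1 stood apart, and knockout 2 exceeded wild type 2 by only 0.05, so the groups did not overlap by a narrow margin. The log2 fold change was 0.68 ± 0.37 (SE, n = 2 per group, limma adjusted p = 0.935), with a 95% interval from -0.25 to 1.61, and its size exceeded that of 90.5% of tested probes. Without knockout 1 it was 0.28, and without knockout 2 it was 1.07.

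Cdkn2c encodes p18, the INK4 protein also linked to differentiation of several tissues. Its probe (NM_007671) read 4.98 on knockout 1 and 4.70 on knockout 2, against 4.16 on wild type 1 and 4.81 on wild type 2. Only wild type 1 stood apart, on the low side, and the other 3 arrays lay within 0.28. For Cdkn2c the log2 fold change was 0.36 ± 0.32 (SE), or 0.03 without wild type 1.

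Cdkn2a encodes p16 and, from another reading frame, p19ARF, and by the rule used none of the 4 arrays had it well above background. Of the 10 spots of its probe (NM_009877), 0 passed on knockout 1 and 2 on knockout 2, against 0 on each wild-type array. Mean processed signals were 6.80 and 9.83 on the knockout arrays, against 6.01 and 7.15 on the wild-type arrays. Mean levels were -5.55 and -4.08 on the knockout arrays, against -5.15 and -4.44 on the wild-type arrays. Spots of 1 array differed with SDs from 0.41 to 0.69 on the log2 scale, and no fold change is given. Cdkn2a and Cdkn2b are neighbours, and both lie on chromosome 4, as do Cdkn2c and Stmn1. RefSeq places 484 protein-coding genes between Cdkn2b and Stmn1 and 358 between Cdkn2c and Stmn1.

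The D-type cyclin genes with probes gave no call, and the probes of Ccnd2 disagreed in sign. Ccnd2 encodes cyclin D2, used by many cell types including lymphocytes and ovarian granulosa cells, and it has 3 probes under 1 accession (NM_009829). Probe 1 read 3.78 on knockout 1 and 3.16 on knockout 2, against 3.49 on wild type 1 and 3.67 on wild type 2. Knockout 2 was the lowest array there. Probe 2 read 3.69 and 3.47 on the knockout arrays, against 2.66 and 3.53 on the wild-type arrays. Probe 3 read 2.55 and 2.29 on the knockout arrays, against 1.72 and 2.55 on the wild-type arrays. On probes 2 and 3 wild type 1 was the low array, which probe 1 did not show. The log2 fold changes were -0.11 ± 0.31, 0.48 ± 0.36 and 0.29 ± 0.36 (SE, n = 2 per group, limma adjusted p from 0.935 to 0.971). Probe 1 turned to 0.20 without knockout 2 and to 0.06 under median scaling, and probe 3 turned to -0.13 without wild type 1. Probe 2 was 0.04 without wild type 1. The sources used here do not give where each probe lies in the transcript.

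Ccnd3 encodes cyclin D3, the D-type cyclin most tied to differentiating cells such as muscle and lymphocytes. Its probe (NM_007632) read 3.52 on knockout 1 and 3.60 on knockout 2, against 3.20 on wild type 1 and 3.51 on wild type 2. Both knockout arrays exceeded both wild-type arrays, but knockout 1 and wild type 2 differed by only 0.006. Cyclin D3's gene had a log2 fold change of 0.20 ± 0.26 (SE, limma adjusted p = 0.940), and 0.05 without wild type 1.

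Skp2, which recognises phosphorylated p27 for ubiquitination, was dim. Its probe (NM_013787) had processed signals of 30.6 on knockout 1 and 21.4 on knockout 2, against 24.2 on wild type 1 and 12.6 on wild type 2. It was well above background on both knockout arrays and on 1 of the 2 wild-type arrays, wild type 2 being the exception. Levels were -3.25 and -2.90 on the knockout arrays, against -2.99 and -3.52 on the wild-type arrays, and the groups overlapped. The log2 fold change of 0.18 ± 0.31 (SE) turned to -0.09 without wild type 2 and to -0.0049 under normexp background correction. Cdkn1b and Skp2 fold changes had opposite signs in the main setting, neither called, but that of Skp2 did not hold its sign. The arrays read RNA, so the p27 protein that Skp2 acts on was not measured.

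**Figure D3:**
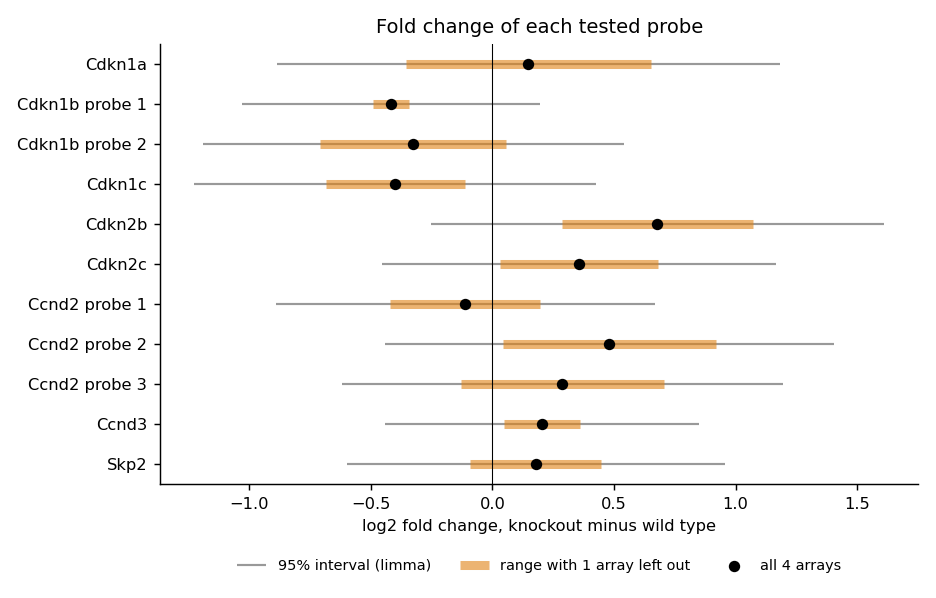
Log2 fold change of each tested member probe, knockout minus wild type, with the 95% interval from limma as a thin line and the range over fits with 1 array left out as a thick band. Every interval includes 0, and the bands of Cdkn1a, Cdkn1b probe 2, Ccnd2 probes 1 and 3 and Skp2 cross 0.

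Counted over probes, the groups did not overlap for 2 of the 11 on the higher side (Cdkn2b and Ccnd3) and for 1 on the lower side (Cdkn1b probe 1). Over all tested probes 15.5% did not overlap on the higher side and 19.0% on the lower side, so the members' counts were near those shares. Wild type 1 was the lowest array for 6 of the 11 probes, those of Cdkn1a, Cdkn2b, Cdkn2c and Ccnd3 and 2 of Ccnd2, while it was lowest for 22.7% of all tested probes. Knockout 1 was lowest for 2 of the 11, against 37.8% of all tested probes. The Ccnd2 probes read 1 gene, so these counts are not over independent features.

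Wild type 1 also had the highest mean level of proliferation genes, and that mean and Cdkn1a ranked the 4 arrays in opposite order. Single genes differed. Of those in the mean, Mki67, Mcm6, Plk1, Birc5, Cdc20 and Tyms were highest on wild type 1, but Tyms was lowest on knockout 2. Pcna, Mcm3, Mcm5 and Tk1 were highest on knockout 1. Bub1 was highest on knockout 2 and lowest on wild type 1. The mean level of the 11 E2F target and proliferation genes that were well above background on every array, relative to their own mean over the arrays, was 0.61 on knockout 1 and -0.39 on knockout 2, against 0.70 on wild type 1 and -0.92 on wild type 2. Summed over the 15 genes on the array, the linear level was 63.1 and 30.7 on the knockout arrays, against 72.2 and 23.0 on the wild-type arrays. The part of these genes in the member values was not tested, and 4 arrays are too few for a correlation. The mean of the adipocyte markers was lowest on wild type 1 as well. Plin1, Lep, Retn, Lipe, Pparg and Plin4 were lowest there, while Adipoq, Fabp4 and Cidec were lowest on knockout 1. Over the 9 markers with a value on every array, since the Cfd spot of wild type 1 carried an outlier flag, the mean level was 0.08 and 0.04 on the knockout arrays, against -0.38 and 0.26 on the wild-type arrays, and the summed level was 766 and 876 on the knockout arrays, against 739 and 1100 on the wild-type arrays. By the sum, wild type 1 was thus close to knockout 1. Their part in the low readings of wild type 1 was not tested.

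Lymphocyte markers were high on knockout 2, where no member probe stood as far apart. Of the 7 B cell markers reported, 2 and 5 were well above background on the knockout arrays, against 4 and 3 on the wild-type arrays. Of the 9 T cell markers there, 8 and 8 were on the knockout arrays, against 6 and 3 on the wild-type arrays. Levels by array are given only for the markers well above background on all 4, Cd79b of B cells and Cd3d, Cd5 and Lck of T cells. Relative to its mean over the arrays, Cd79b was at -1.07 and 3.64 on the knockout arrays, against -0.89 and -1.68 on the wild-type arrays. The 3 T cell genes, likewise relative to their means, averaged -1.24 and 3.79 on the knockout arrays, against -1.24 and -1.31 on the wild-type arrays. The summed level of the 7 B cell markers, readings near background included, was 0.56 and 23.5 on the knockout arrays, against 0.82 and 0.59 on the wild-type arrays, and none of the 4 arrays had Pax5 or Blk well above background. That of the T cell markers was 0.88 and 19.3 on the knockout arrays, against 0.87 and 0.73 on the wild-type arrays, and none had Cd4 well above background. Knockout 2 was the highest array for 2 of the 11 member probes, those of Ccnd3 and Skp2, by 0.080 and 0.084 over the next array, and it was highest for 28.6% of all tested probes.

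**Figure D4:**
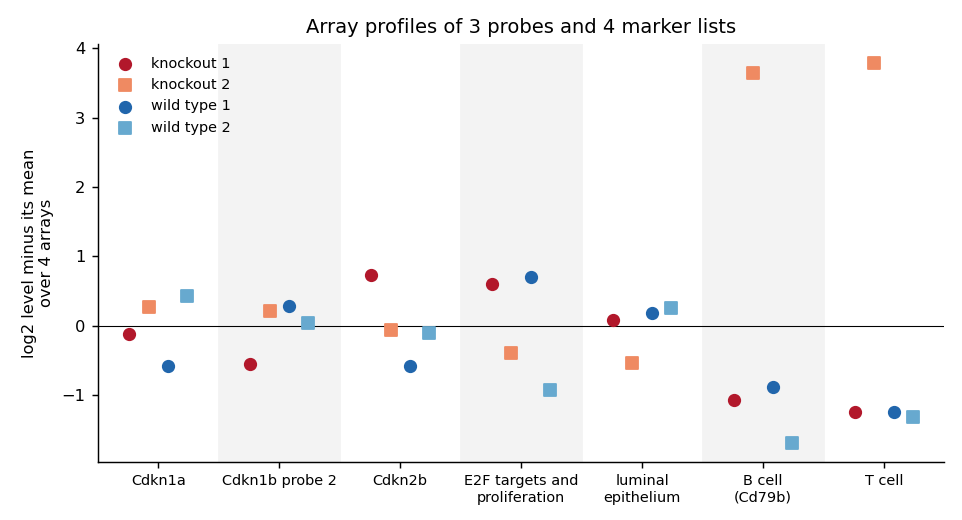
Log2 level of 3 member probes, and mean level of 4 marker lists over their genes well above background on all arrays (for B cells, Cd79b alone), on each knockout and wild-type array, relative to the mean over the 4 arrays. Cdkn1a is lowest and the mean of proliferation genes is highest on wild type 1, Cdkn2b is highest on knockout 1, and B and T cell markers are high on knockout 2 alone.

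The other genes of the G1 pathway gave no call either, in either direction. For comparison, the groups did not overlap on the higher side for 17.7% and on the lower side for 17.8% of the tested named genes. Of the kinases and their partner cyclins, 10 of 12 were tested, 5 with positive and 5 with negative fold changes and a median of -0.03. Cdk6, a kinase partner of the D-type cyclins, had -0.52 ± 0.29 (SE), and the knockout arrays were the lowest pair. It was dim, at -3.10 and -2.73 on the knockout arrays, against -2.20 and -2.59 on the wild-type arrays, though well above background on each. The mitotic cyclin gene Ccnb1 had -0.38 ± 0.69, the cyclin E gene Ccne1 had 0.27 ± 0.41 and the CDK-activating kinase gene Cdk7 had 0.24 ± 0.31. All 13 pocket protein and E2F genes were tested, 7 positive and 6 negative, with a median of 0.02. Rbl1, which encodes the RB relative p107, read 0.84 and 0.20 on the knockout arrays, against -0.05 and -0.82 on the wild-type arrays. Its log2 fold change of 0.96 ± 0.39 (SE, limma adjusted p = 0.935) was larger than that of any member, and the groups did not overlap. E2f2 and E2f8 had 0.70 ± 0.52 and -0.55 ± 0.67. E2f4, an E2F that acts mostly as a repressor with the pocket proteins, had -0.53 ± 0.28 without overlap of the groups, but near the floor. It read -4.55 and -4.12 on the knockout arrays, against -3.91 and -3.69 on the wild-type arrays. The lowest level well above background was -4.79 and -4.30 on the knockout arrays, against -4.21 and -3.78 on the wild-type arrays.

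All 14 genes for the turnover of p27 and D-type cyclins were tested, 6 positive and 8 negative, with a median of -0.06. Fbxw7, the F-box protein gene for cyclin E degradation, had -0.51 ± 0.30 (SE). Skp1, the adaptor that Skp2 binds, had -0.40 ± 0.46. The F-box genes Fbxo4 and Fbxo31, whose products target cyclin D1, had 0.35 ± 0.37 and -0.31 ± 0.31. Of 17 genes for regulators of CDK inhibitor and cyclin D transcription, 14 were tested, 6 positive and 8 negative, with a median of -0.02. Tcf7l2, the nuclear partner of beta-catenin, had -0.64 ± 0.37 and Klf4, an activator of Cdkn1a, had -0.50 ± 0.25. Trp53, which encodes p53, had -0.47 ± 0.29. These 3 had lower readings on both knockout arrays than on both wild-type arrays, while Myc had -0.32 ± 0.41 with overlap. Counted by list, 1 regulator did not overlap on the higher side and 4 on the lower side. For the turnover genes these counts were 1 and 3, for the pocket proteins and E2Fs 3 and 1, and for the kinases and cyclins 1 and 1. Of 16 E2F target and proliferation genes, 14 were tested, 8 positive and 6 negative, with a median of 0.07, and in none did the groups fail to overlap. Bub1 and Mcm5 had 0.76 ± 0.48 and 0.68 ± 0.75, and Tk1 had 0.89 ± 0.78. Mcm2 had -0.89 ± 0.77, with knockout 2 read as it stands although it was not well above background there. Adjusted p was at least 0.935 for every gene of the 5 lists (limma).

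**Figure D5:**
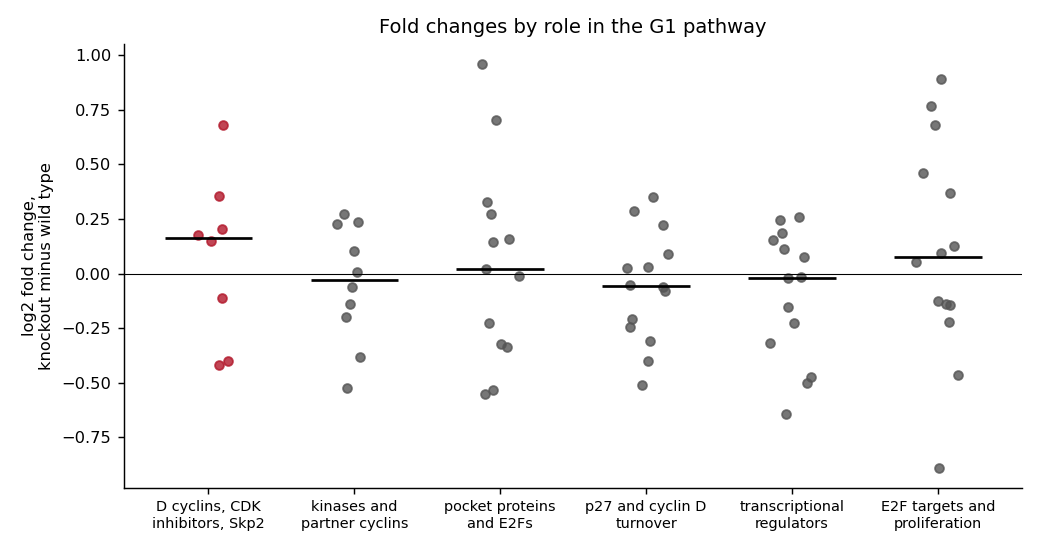
Log2 fold changes, knockout minus wild type, of the 8 tested members by their brightest probe and of the tested genes of 5 lists of the G1 pathway, with 1 point per gene and the median as a bar. Each group spreads on both sides of 0, and the medians lie between -0.06 and 0.16.

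Profiles over the 4 arrays were set against those of 12197 other named genes well above background on every array, by the root mean square difference between centred log2 levels, as a description. The nearest to Cdkn1a were Tpcn2 and Nrip1, each at 0.048, and 12 genes lay within 0.1. Cdkn2b had Alb at 0.064 and Opn3 at 0.069, with 15 genes within 0.1. The nearest to Cdkn2c were the lipid droplet gene Plin1 at 0.022 and Zfp53 at 0.027. Plin1 is one of the adipocyte markers whose levels are given above. Cdkn1b probe 1 had Enox2 at 0.023 and Olfr544 at 0.026, and Cdkn1c had Smarcc1 at 0.015 and Rhou at 0.034. Ccnd2 probe 1 had Prkaa1 at 0.015 and Jade1 at 0.020, and Ccnd3 had AI837181 at 0.007 and Coq5 at 0.014. With 682 genes within 0.1 of Ccnd3 and 237 of Cdkn1b, a close match over 4 arrays was common. Of the 7 members compared in this way, Cdkn1a and Cdkn2b had the fewest genes within 0.1. Their levels also had the widest ranges over the arrays, 0.20 to 1.21 and 0.23 to 1.54. The limit of 0.1 takes no account of that width, so these counts do not show how unusual a profile is.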

How the data were processed

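Gene expression was measured on 4 one-colour Agilent arrays, 2 labelled stathmin knockout and 2 labelled wild type. The deposited scanner files hold processed signal intensities from Agilent Feature Extraction (11.5.1.1 is named in the file headers, but 10.7.3.1 in the submitters' processing notes), with background subtracted within each array and nothing done between arrays. The authors also deposited log2 values. The design text names GeneSpring for the bioinformatics and states no steps. Against the scanner values they matched quantile-normalized log2 signals centred on each probe's median (Pearson r across probes from 0.9999), and their column medians were 0.00604, -0.00977, -0.0178 and 0.0184 on knockout 1, knockout 2, wild type 1 and wild type 2.

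Levels were log2 processed signal minus the array's 75th percentile of non-control spots, with control spots and 35 to 73 spots per array with outlier flags left out and repeated spots of a probe averaged. A probe counted as well above background on an array when over 50% of its spots did. The test took probes that passed this on both knockout or both wild-type arrays, 24186 of 41174. Unversioned accessions were looked up in NCBI RefSeq (GRCm38.p6, for names and neighbours), which named 27816 probes from 18952 genes and left the others unnamed. The comparison used limma 3.58.1 (R 4.3.3; lmFit and eBayes without covariates). P-values were adjusted by Benjamini-Hochberg over the 24186 probes, with 0.05 as the threshold. The procedure was tested on simulated data. A gene outside the member list is given by its brightest tested probe.

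All probes of the members are reported. From each of 5 pathway lists, the 4 tested genes with the largest absolute fold change are named. For each member well above background on all 4 arrays, the 2 genes nearest in profile are named too. One marker of the B cell list is not reported here. Members and lists were chosen with earlier results of these data known. Alternatives were other scalings, normexp background correction (on median spot signals, as the files used here hold no mean signal column), the deposited log2 table, other filters, a replicate block and leaving out each array. The arrays measure signal over background, so no interval for counting error applies.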

Additional observations from a re-analysis of the deposited data

How the results depend on the processing

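Values were recomputed under 14 alternatives. Of 98 fold changes of member probes under alternatives that kept every array, 96 kept their direction and their side of the threshold. The exceptions were Ccnd2 probe 1, which turned to 0.063 under median scaling, and Skp2, which turned to -0.0049 under normexp correction. The cause was not tested. Median scaling moved the median of all tested probes to 0.13, against -0.04 in the main setting, so the members' fold changes there are relative to that shift. Under normexp correction Cdkn1b was -0.11 by probe 1 and -0.08 by probe 2, against -0.42 and -0.33 in the main setting. With 1 array left out, where the lone array of a group is assumed to vary like the others, 38 of 44 fold changes kept their direction. The ranges of those that did not were -0.36 to 0.65 for Cdkn1a, -0.71 to 0.056 for Cdkn1b probe 2, -0.42 to 0.20 for Ccnd2 probe 1, -0.13 to 0.71 for Ccnd2 probe 3 and -0.090 to 0.45 for Skp2. Over all alternatives the smallest adjusted p of a member probe was 0.406 (limma). Over all probes the count at an adjusted p under 0.05 was 0 in each direction except under median scaling, where 1 probe was higher (Rbbp4) and 5 were lower (Csn1s2a, Scgb2b27, Col9a1, Scrg1 and Slc6a2). Those 5 were also the named genes lower there. At an unadjusted p under 0.05 the main setting gave 254 probes higher and 641 lower. The labels give both groups the numbers 1 and 2 without saying what a number shares. Deviations of same-numbered arrays from their group means had a correlation of 0.065 across 24186 probes, and the fit with the replicate block also called 0 probes in each direction (222 higher and 644 lower at an unadjusted p under 0.05). Signal over background limits the values of Cdkn2a and Skp2, and that of E2f4 among the pathway genes. It also limits Mcm2, Ccne2, Cdc25a, Top2a and Cenpa, which were tested but not well above background on every array.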
